A study of Mus musculus with 6 samples.

Results

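The 10 genes described here code for the chromosomal passenger complex, the proteins that place it at centromeres, and 2 proteins of the centromere itself. They were Incenp, Aurkb, Cdca8, Birc5, Haspin, Bub1, Sgo1, Sgo2a, Cenpa and Mis12, taken by name through their Entrez identifiers from 24467 genes. The rule uses no measured value, though the genes were chosen with earlier results of these data known. All 10 were found and all 10 passed the filter on low counts that left 14771 genes. RNA was sequenced from mouse embryonic stem (ES) cells in 6 libraries. The double knockout (DKO) cells carried deletions of Cbx5 and Cbx1, the genes for the heterochromatin proteins HP1 alpha and HP1 beta, and gave 4 libraries, 2 of clone 1 and 2 of clone 2. The 2 control libraries came from 1 clone whose Cbx5 and Cbx1 alleles were floxed, with a genotype given as WT. How the alleles were deleted is not stated. All cells were untreated and grown with leukaemia inhibitory factor, knockout serum replacement and inhibitors of GSK3 (3 µM CHIR99021) and MEK (0.8 µM PD184352). Whether libraries of 1 clone were separate cultures is not stated in the labels, so p-values measure the spread between libraries only, which may be technical. With 1 control clone, an effect of the genotype and a difference between clones cannot be told apart.

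In mitosis the chromosomal passenger complex gathers at the inner centromere, the chromatin between sister kinetochores. There its kinase, aurora B, releases microtubules that are wrongly attached, and later in division the complex moves to the spindle midzone. Centromeres are marked by nucleosomes with the histone variant CENP-A, on which the kinetochore is built, and are surrounded by heterochromatin rich in HP1. In human cells HP1 binds INCENP, shugoshin 1 and the MIS12 complex.

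Of the 10 genes, 1 passed the test in DKO against control. This was Cenpa, whose RNA was higher in DKO cells by 31.9% (95% interval 16.7 to 48.9%, 4 DKO and 2 control libraries). The 4 subunits of the passenger complex, Haspin, Bub1, both shugoshins and Mis12 did not pass the test in the comparison of genotypes, and their estimated changes lay between -0.13 and 0.15 on the log2 scale. Sgo2a was higher than the control in clone 1, and not in clone 2.

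Depth was between 24628872 and 34641560 counted reads a library, and the members held 1110 to 7859 reads in a library, so counting error alone was at most 3.0% of any of their values. Reads of Cbx5 fell to 198 ± 6.58 CPM (counts scaled to library size; SD, n = 4) in DKO cells, against 811 ± 2.96 CPM (n = 2) in control cells, and those of Cbx1 fell to 45.7 ± 2.44 CPM, against 225 ± 2.88 CPM. Which exons were deleted is not stated, so the reads that are left may come from outside them. Cbx3, the gene of HP1 gamma, had 462 ± 19.04 CPM in DKO cells and 332 ± 16.4 CPM in control cells, and lies on chromosome 6, whose 709 tested genes had a median log2 change of 0.48. The 2 control libraries stood further apart from each other than the libraries of a clone, with a chi-square per gene of 11.8 in clone 1 and 12.5 in clone 2, against 44.4 in the control. All 9 ES cell markers were present, with a summed level of 3436 to 3673 CPM in DKO libraries and 3257 to 3436 CPM in control libraries. The 10 markers of fibroblasts and feeder cells summed to 4.20 to 5.98 CPM in DKO libraries and 9.05 to 12.05 CPM in control libraries. Markers of primitive endoderm (6 genes) summed to 4.91 to 6.54 CPM and 7.07 to 8.83 CPM in DKO and control libraries, and those of trophectoderm (5 genes) to 17.5 to 24.8 CPM and 13.01 to 17.2 CPM. Of the 4 trophectoderm markers tested in DKO against control, edgeR called 1 higher and 1 lower. No marker was at 0 in all 6 libraries, though Col1a2, Col3a1, Postn, Lum, Dcn and Fap of the fibroblast list and Elf5 of the trophectoderm list were at 0 in some.

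Cenpa (Entrez 12615, GRCm38 chromosome 5, 30666877 to 30674837, plus strand) codes for CENP-A, the histone H3 variant that specifies where the centromere is. It had 65.5 and 68.1 CPM in clone 1, 71.3 and 73.4 CPM in clone 2, and 54.6 and 50.9 CPM in the control. All 4 DKO libraries lay above both control libraries, and the gap between the groups, from 54.6 to 65.5 CPM, was wider than the range within either. The mean was 69.6 ± 3.45 CPM in DKO cells (SD, n = 4) and 52.8 ± 2.63 CPM in control cells (n = 2), a log2 change of 0.40 (SE 0.0792, edgeR quasi-likelihood F test with Benjamini-Hochberg adjustment, adjusted p = 0.0115). The 95% interval of the fold was 1.17 to 1.49. Cenpa stood at rank 578 by p-value among the tested genes. It was called higher in clone 1 (log2 change 0.34, SE 0.0765, edgeR adjusted p = 0.00866) and in clone 2 (0.45, SE 0.0766, edgeR adjusted p = 0.0012), contrasts that share the control libraries. The difference between the clones was 0.11 (95% interval -0.05 to 0.28, edgeR adjusted p = 0.438).

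The call for DKO cells rested on having both control libraries: edgeR's adjusted p was 0.0722 without control replicate 1 (log2 change 0.45) and 0.143 without control replicate 2 (0.35). The call in clone 1 ended without clone 1 replicate 2 (edgeR adjusted p = 0.0567) or control replicate 2 (0.0594), and that in clone 2 held in 15 of 15 alternative analyses. Thinned to 1 depth, the libraries gave a log2 change of 0.40 and adjusted p = 0.0133, and centring every chromosome on its median gave 0.42 and 0.0142. The summed fibroblast markers were lower in DKO libraries, as given above, with 1 of the 4 tested markers, Acta2, called lower. The call of Acta2 ended without control replicate 1 (edgeR adjusted p = 0.0555) or control replicate 2 (0.109). The part of these markers in the result for Cenpa was not tested. In RNA from whole cultures, fewer cells of a type and less RNA per cell cannot be told apart.

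**Figure D1:**
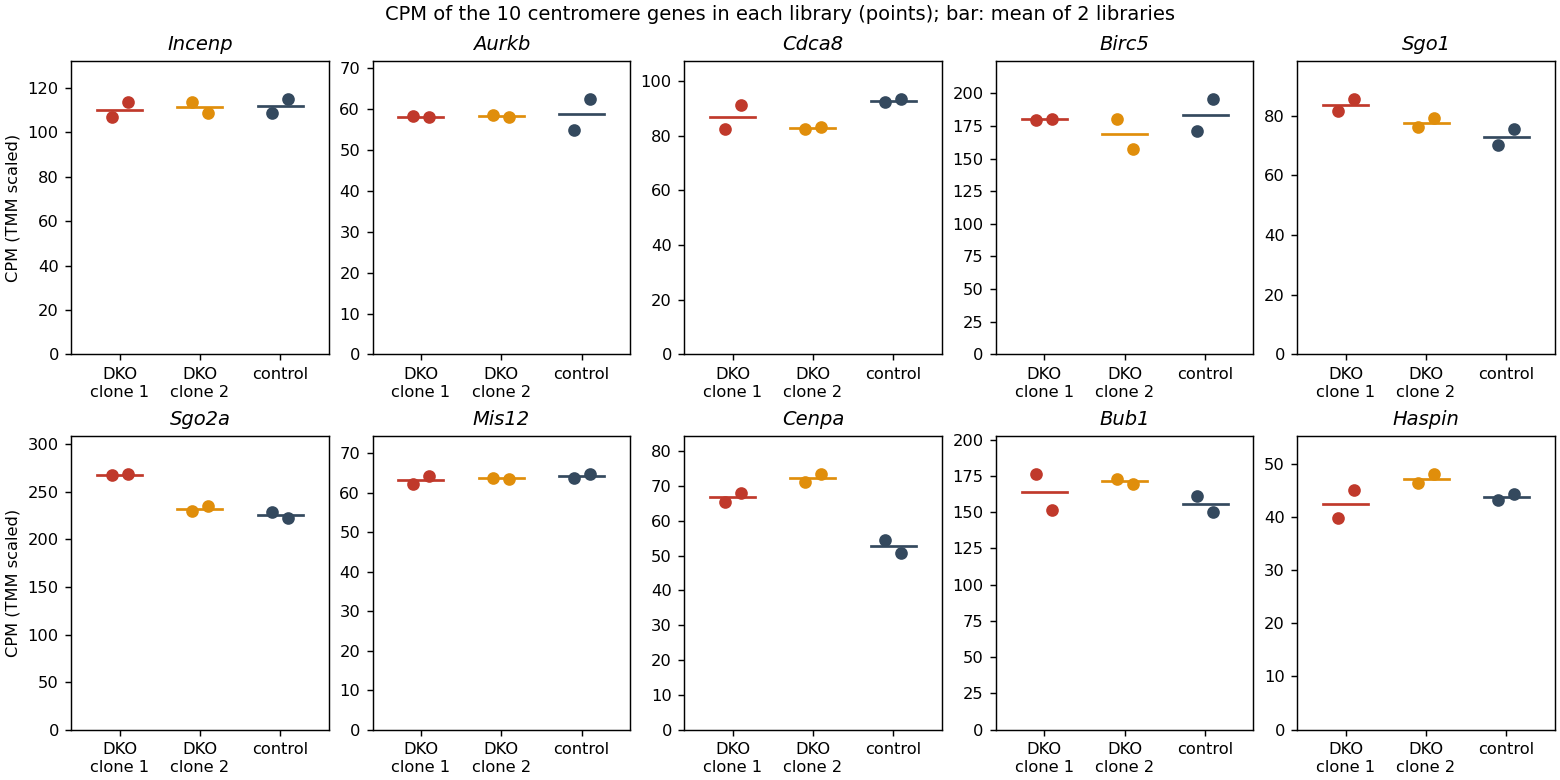
Level of each of the 10 genes in CPM (vertical axis) in each library, with clone 1 and clone 2 of the double knockout left of the control. Points are libraries and bars are group means. For Cenpa the 4 DKO points, 65.5 to 73.4 CPM, lie above both control points, 50.9 and 54.6 CPM.

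The promoter of Cenpa is printed because Cenpa is the member that changed. Genes whose RNA peaks in late cell cycle often carry CCAAT boxes and a cell cycle genes homology region, a short element near the start site with the letters TTTGAA or TTCGAA, bound by repressor complexes in resting cells and by MuvB with activators in dividing cells. The sequences come from RefSeq (GRCm38.p6), whose table held 8 of the 10 members and not Incenp or Aurkb. The 250 bases before the start site of Cenpa (chr5:30666636-30666885, plus strand), with capitals for CCAAT boxes read on the other strand (ATTGG), were:
Cenpa upstream: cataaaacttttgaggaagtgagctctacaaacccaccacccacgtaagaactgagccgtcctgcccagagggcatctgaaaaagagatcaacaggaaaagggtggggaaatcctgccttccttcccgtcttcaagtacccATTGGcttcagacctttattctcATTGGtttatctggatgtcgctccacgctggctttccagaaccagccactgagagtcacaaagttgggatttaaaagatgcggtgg
The TTTGAA letters of Cenpa lie after the start site, in the transcribed bases shown next. This start site is not the outermost, since the gene starts at 30666877 in its RefSeq span and at 30666777 in the GENCODE M21 annotation. Some of the printed bases, the capitals among them, thus lie inside the gene in GENCODE M21.

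Windows of 30 bases around the TTTGAA or TTCGAA letters (capitals) are shown for 4 members, Cenpa, which was called higher in DKO cells, and Haspin, Bub1 and Sgo1, which were not called. They are on the strand of the gene, at chr5:30666890-30666919 (Cenpa, plus), chr11:73138270-73138299 (Haspin, minus), chr2:127831828-127831857 (Bub1, minus) and chr17:53689271-53689300 (Sgo1, minus).
Cenpa: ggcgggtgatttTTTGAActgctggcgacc
Haspin: gcggtgtttctgTTTGAAacgccgggcggg
Bub1: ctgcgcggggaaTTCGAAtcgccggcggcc
Sgo1: gtaacgcagaatTTCGAAtgtggcggcggt
Counted from 1 at the first transcribed base of the promoter entry, the first capital is base 17 in Cenpa, 8 in Haspin, 15 in Bub1 and 28 in Sgo1. The entry of Sgo1, chr17:53689266-53689565, lies inside the span of the gene, which reaches 53691331, so its start site is not the outermost. TTTGAA or TTCGAA, on either strand, was found in 19.2% of 32851 promoters of the same 300 bases (17.9% for TTTGAA and 1.56% for TTCGAA, which reads the same on both strands), and in 2.46% it lay in the first 50 transcribed bases. Not every member with an entry is described: of the other entries, those of Birc5, Sgo2a and Mis12 hold neither in this window. CCAAT on either strand was found in 37.4% of all promoters. Of the 7 members described here, Sgo1, Bub1, Cenpa, Sgo2a and Mis12 held it, Mis12 4 times on its own strand, and Haspin and Birc5 did not. A match of letters is a description and not evidence of a bound factor.

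The passenger complex has 4 subunits. Incenp (Entrez 16319, chromosome 19, 9872295 to 9899489) codes for the scaffold, whose C-terminal end activates the kinase. It had 107 and 114 CPM in clone 1, 114 and 109 CPM in clone 2, and 109 and 115 CPM in the control, a log2 change of -0.01 (95% interval -0.16 to 0.13, edgeR adjusted p = 0.929). Aurkb (Entrez 20877, chromosome 11, 69045624 to 69051664), the kinase aurora B itself, had 58.2 and 58.01 CPM in clone 1, 58.4 and 58.2 CPM in clone 2, and 55.0 and 62.4 CPM in the control. The 4 DKO libraries lay within 0.4 CPM of each other and between the 2 control libraries. Its log2 change was -0.01 (interval -0.18 to 0.16, edgeR adjusted p = 0.954).

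Cdca8 (Entrez 52276, chromosome 4, 124918465 to 124936917) codes for borealin, which with survivin binds the complex to nucleosomes. It had 82.3 and 91.2 CPM in clone 1, 82.5 and 83.2 CPM in clone 2, and 92.3 and 93.2 CPM in the control. All 4 DKO libraries lay below both control libraries, 1 of them by little. The log2 change was -0.13 (interval -0.28 to 0.03), which did not pass (edgeR adjusted p = 0.303). Birc5 (Entrez 11799, chromosome 11, 117849237 to 117855743) codes for survivin, the subunit that reads histone H3 phosphorylated by haspin. It had 179.8 and 180.0 CPM in clone 1, 180.1 and 157 CPM in clone 2, and 171 and 195 CPM in the control, with overlapping groups and a log2 change of -0.07 (interval -0.25 to 0.11, edgeR adjusted p = 0.650). The 95% intervals of the 4 subunits lay between folds of 0.821 and 1.12.

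The kinases that mark the inner centromere are haspin and BUB1. Haspin (Entrez 14841, chromosome 11, 73135484 to 73138294, minus strand) phosphorylates a threonine near the end of histone H3, the mark that survivin binds. It had 39.8 and 45.1 CPM in clone 1, 46.3 and 48.0 CPM in clone 2, and 43.2 and 44.2 CPM in the control, with both controls inside the DKO range (log2 change 0.04, interval -0.17 to 0.24, edgeR adjusted p = 0.864). Haspin has 1 exon and lies within an intron of Itgae, which is on the other strand and had 1.65 to 2.01 CPM in DKO libraries and 2.26 to 2.62 CPM in control libraries. Bub1 (Entrez 12235, chromosome 2, 127800197 to 127831859) phosphorylates histone H2A at kinetochores, the mark that draws in shugoshin, and also acts in the spindle checkpoint. It had 176 and 151 CPM in clone 1, 173 and 169.8 CPM in clone 2, and 161 and 150.4 CPM in the control, with overlapping groups (log2 change 0.10, interval -0.06 to 0.27, edgeR adjusted p = 0.451).

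The shugoshins protect cohesin at the centromere from early removal and help to hold the passenger complex there. Sgo1 (Entrez 72415, chromosome 17, 53674786 to 53691331), the main form in mitosis, had 81.6 and 85.4 CPM in clone 1, 76.1 and 79.1 CPM in clone 2, and 70.04 and 75.5 CPM in the control. All DKO libraries lay above the control, the closest by less than 1 CPM. The log2 change was 0.15 (interval -0.02 to 0.31) and did not pass (edgeR adjusted p = 0.276). Sgo2a (Entrez 68549, chromosome 1, 57985340 to 58026277), the form best known for protecting cohesin in meiosis, had 268.3 and 268.4 CPM in clone 1, 229.6 and 235 CPM in clone 2, and 229 and 223 CPM in the control. Clone 1 stood above the other 4 libraries, and clone 2 lay close to the control.

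For Sgo2a the genotype comparison gave a log2 change of 0.15 (interval -0.03 to 0.33, edgeR adjusted p = 0.298). Clone 1 alone was higher than the control by 0.25 (SE 0.0626, edgeR adjusted p = 0.0164), and clone 2 differed from it by 0.04 (interval -0.09 to 0.18, edgeR adjusted p = 0.721). The difference between the clones themselves was -0.21 (clone 2 minus clone 1, interval -0.34 to -0.07), with edgeR's adjusted p = 0.0715 and DESeq2's 0.0492, so that the call depends on the tool. The call in clone 1 ended without clone 1 replicate 1 (edgeR adjusted p = 0.0585), control replicate 1 (0.0572) or control replicate 2 (0.0811). In the GENCODE M21 annotation, 35% of the exonic bases of Sgo2a are shared with Kctd18 on the other strand, which had 188 and 199.6 CPM in clone 1, 163 and 170.2 CPM in clone 2, and 169 and 166 CPM in the control. Clone 1 was thus the highest for Kctd18 too. In the RefSeq positions the pair does not overlap, since Kctd18 ends at base 57970141 and Sgo2a starts at 57985340. Which annotation and strand were counted is not stated, so reads of the pair may not be told apart. The part of Kctd18 in the call of Sgo2a was not tested. Its paralog Sgo2b was near the bottom of the range, with 1.76 to 2.81 CPM in DKO libraries and 3.23 to 3.35 CPM in control libraries.

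Mis12 (Entrez 67139, chromosome 11, 71019568 to 71027371) codes for a subunit of the complex that links the inner kinetochore to the microtubule-binding NDC80 complex. It was the most even of the 10 genes across the 6 libraries, with 62.2 and 64.2 CPM in clone 1, 63.8 and 63.4 CPM in clone 2, and 63.7 and 64.6 CPM in the control. Its log2 change was -0.02 (interval -0.17 to 0.13, edgeR adjusted p = 0.917). In the annotation it shares 231 exonic bases, 7.69% of its own, with Derl2 on the other strand.

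**Figure D2:**
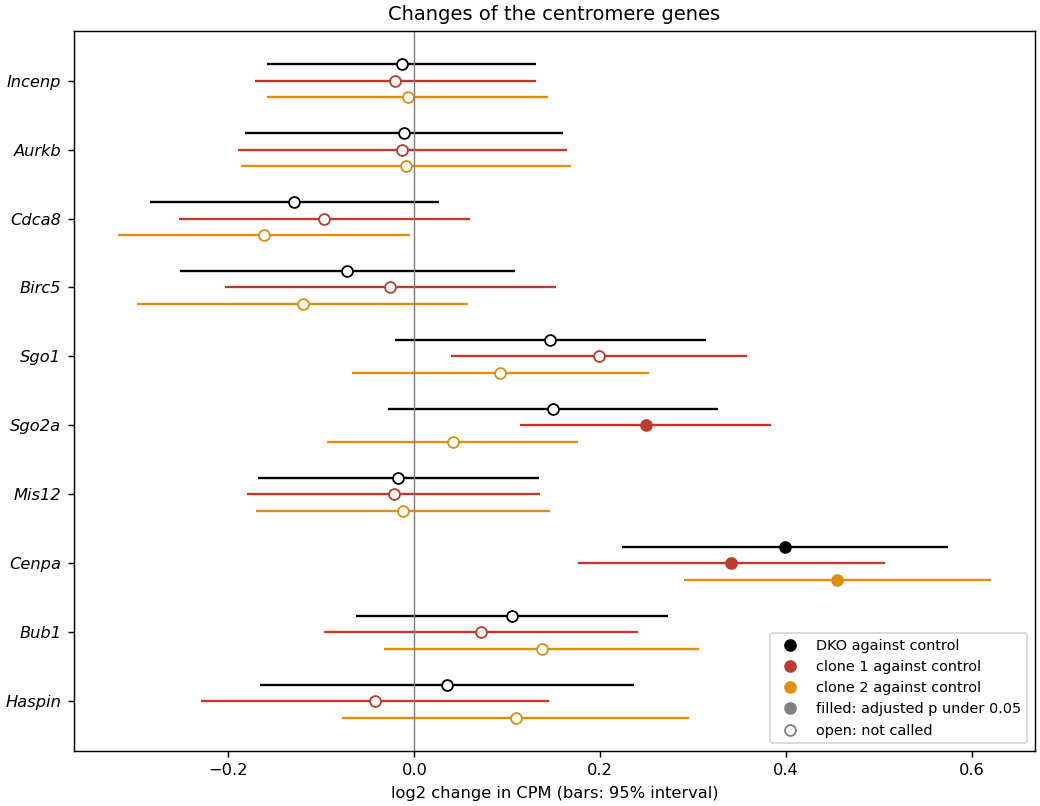
Log2 change of each of the 10 genes in DKO against control, clone 1 against control and clone 2 against control, with points for the estimate and bars for the 95% interval. Cenpa lies above 0 in all 3 comparisons (0.40, 0.34 and 0.45), and Sgo2a in clone 1 (0.25) and not in clone 2 (0.04). The intervals of Incenp, Aurkb, Birc5, Mis12, Bub1 and Haspin include 0 throughout. Those of Sgo1 in clone 1 and Cdca8 in clone 2 leave out 0, though neither was called.

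Counted together, 1 of the 10 members was called in DKO against control, 10% beside 8.69% of all tested genes (5.06% higher and 3.62% lower). In clone 1 against control 2 were called, Cenpa and Sgo2a, where 15.3% of all genes were called and 8.79% were higher. In clone 2 against control 1 was called, Cenpa, where 15.0% of all genes were called and 7.89% were higher. Between the clones edgeR called none of the 10, beside 6.30% of all genes. There 1 member, Sgo2a, had an unadjusted p under 0.05, DESeq2 called 1 and limma-voom called none. The share of members called was near that of all genes in these comparisons. Without control replicate 1 or control replicate 2, no member was called in DKO against control, and over all genes 158 or 210 were called higher and 88 or 103 lower, where both controls gave 748 and 535. With chromosomes centred, the split over all genes was 335 higher and 444 lower. In 3 members, Cenpa, Sgo1 and Sgo2a, every DKO library lay above both controls, as did 16.9% of all tested genes, and in 1, Cdca8, every DKO library lay below, as did another 16.9%. The median log2 change of the members was 0.01, beside 0.00 for all tested genes, and their median size regardless of sign was 0.09, beside 0.17. All tested genes include genes with far fewer reads than any member, and sizes were not compared at matched levels.

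Levels were compared between genes as CPM per kilobase of the gene width deposited beside the counts. Birc5 and Sgo2a were highest, with 51.2 ± 3.39 and 50.7 ± 4.23 CPM per kb in DKO cells (SD, n = 4) and 53.8 ± 5.04 and 45.7 ± 0.838 CPM per kb in control cells (n = 2). Their ranges overlapped in DKO cells, and in control cells Birc5 lay above Sgo2a. Bub1 (38.5 ± 2.54 and 35.8 ± 1.73 CPM per kb in DKO and control cells) and Incenp (34.4 ± 1.07 and 34.7 ± 1.33) came next, and their ranges overlapped in both genotypes. Mis12 had 21.1 ± 0.278 CPM per kb in DKO cells and 21.4 ± 0.210 in control cells, close to Aurkb (20.6 ± 0.0585 and 20.8 ± 1.85) and Sgo1 (21.1 ± 1.03 and 19.1 ± 1.02). Cdca8 (16.4 ± 0.824 and 17.9 ± 0.126) and Haspin (15.9 ± 1.25 and 15.6 ± 0.260) were lowest, with ranges that overlapped in DKO cells and not in control cells.

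By the deposited width, the mean of Cenpa lay below that of Mis12 in control cells (21.1 and 21.4 CPM per kb). In DKO cells it lay above that of Mis12 (27.8 and 21.1). The 26.2 to 29.3 CPM per kb of Cenpa in DKO cells lay above all of Mis12 (20.7 to 21.4), Aurkb (20.5 to 20.7) and Sgo1 (20.0 to 22.4) and below Incenp (33.2 to 35.3). In control cells its 20.3 to 21.8 CPM per kb overlapped those of Mis12 (21.2 to 21.5) and Aurkb (19.4 to 22.1). They lay above those of Sgo1 (18.4 to 19.8) there too. The order of 4 genes depends on which exons are counted, since the deposited width differed from the exonic length of GENCODE M21 for Incenp (3217 against 4329 bases), Aurkb (2827 against 2946), Sgo2a (4939 against 7007) and Cenpa (2506 against 5860). The place of Cenpa was not worked out with its longer exonic length, and is given for the deposited width only. The comparison of a gene between genotypes does not involve the width.

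**Figure D3:**
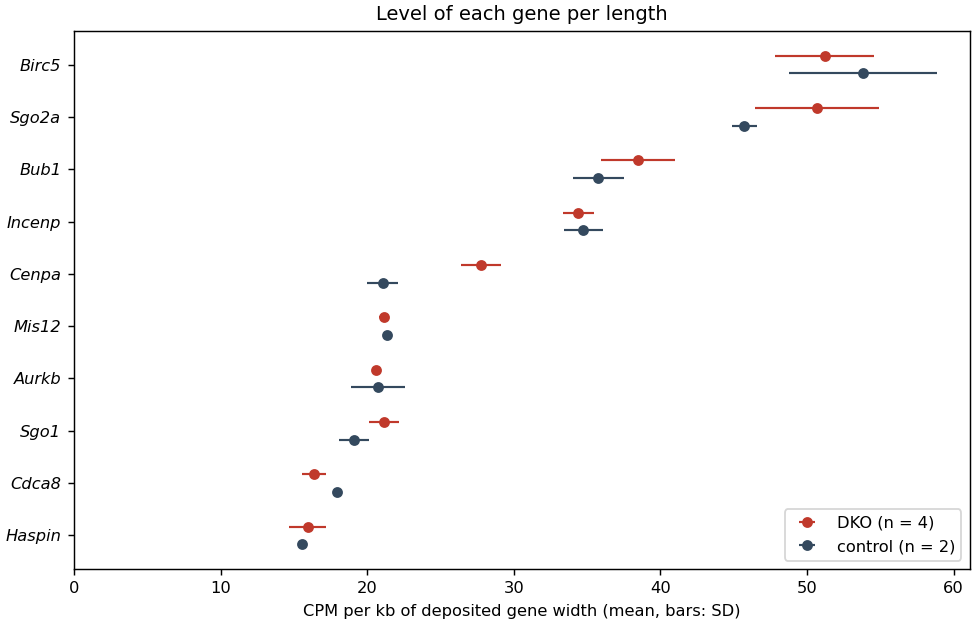
Level of the 10 genes in CPM per kilobase of deposited gene width, with the genes in order of their mean. Points beside each gene are the means of the DKO (n = 4) and control (n = 2) libraries, and bars are SD. The DKO mean of Cenpa (27.8) lies clear of its control mean (21.1), and the points of Birc5 and Sgo2a stand highest.

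Other genes of the centromere and of mitosis were taken from 7 lists of 87 genes, all of which were tested. In DKO against control 4 rose and 3 fell, 8.05% of them beside 8.69% of all genes, and 80 did not pass. Their median log2 change was 0.01. Of the 87, 0 were called without control replicate 1, 1 without control replicate 2, 3 without clone 2 replicate 1 and 2 with chromosomes centred. Of the 7 genes that load CENP-A into chromatin 2 fell and none rose (median 0.03). Among them was Npm1, an abundant nucleolar histone chaperone found with newly made CENP-A, with 5607 ± 360 CPM in DKO cells and 7133 ± 776 CPM in control cells (log2 change -0.35, edgeR adjusted p = 0.0313). It did not pass without control replicate 1 (0.0502), control replicate 2 (0.305) or clone 2 replicate 1 (0.0654), or with chromosomes centred (0.0733).

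In the inner kinetochore, the constitutive proteins that sit on CENP-A nucleosomes, 1 of 16 genes fell and none rose (median 0.03). This was Cenpk, with 21.8 ± 2.55 CPM in DKO cells and 29.1 ± 0.591 CPM in control cells (log2 change -0.42, edgeR adjusted p = 0.0477), a call made in 7 of 15 alternative analyses. It ended without control replicate 1 (0.278), control replicate 2 (0.218), clone 1 replicate 1 (0.0620), clone 1 replicate 2 (0.0777) or clone 2 replicate 1 (0.0710). In the outer kinetochore, which grips microtubules, 1 of 9 rose and none fell (median 0.08). This was Pmf1, a partner of Mis12 in the same complex, with 54.4 ± 5.17 and 38.1 ± 2.90 CPM (0.51, edgeR adjusted p = 0.0118). Pmf1 lies on chromosome 3, whose 701 tested genes had a median of 0.18, and with each chromosome centred its log2 change was 0.34 (edgeR adjusted p = 0.0409). Its adjusted p was 0.161 when control replicate 1 was left out and 0.0701 when control replicate 2 was.

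None of 11 spindle checkpoint genes (median 0.01) and none of 15 genes of cohesin and its regulators (median 0.00) was called by edgeR. Unadjusted p was under 0.05 for 2 in each list, Mad2l1 and Spdl1 in the first and Rad21 and Esco2 in the second, and limma-voom called none in either. DESeq2 called 1 in the first, Mad2l1, and none in the second. Mad2l1, the checkpoint protein MAD2, lies on chromosome 6, and its log2 change of 0.25 became -0.22 with each chromosome centred.

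Among 14 partners and substrates of the passenger complex 1 rose and none fell (median 0.09). This was Kif20a, a kinesin that carries the complex to the spindle midzone, with 337 ± 8.21 CPM in DKO cells and 275 ± 15.9 CPM in control cells (log2 change 0.29, edgeR adjusted p = 0.0162). Its adjusted p was 0.0684 with chromosomes centred, and 0.0772 or 0.191 when control replicate 1 or 2 was left out. Among 15 markers of G2 and mitosis 2 rose and none fell, and the median was -0.06. The phosphatase gene Cdc25c, which triggers entry into mitosis, had 22.1 ± 1.28 and 16.4 ± 0.124 CPM (0.43, edgeR adjusted p = 0.0231). Cdca3, a trigger of mitotic entry, had 161 ± 11.8 and 109 ± 17.7 CPM (0.56, edgeR adjusted p = 0.00694). It lies on chromosome 6, and with each chromosome centred its log2 change was 0.10 (edgeR adjusted p = 0.596). The call of Cdc25c ended without control replicate 1 or 2 (edgeR adjusted p = 0.181 and 0.149) or clone 2 replicate 1 (0.0544) and with chromosomes centred (0.0564), and that of Cdca3 without control replicate 1 (0.109). The 15 markers summed to 4495 to 4879 CPM in DKO libraries and 4930 to 5006 CPM in control libraries, and the part of this in the result for Cenpa was not tested.

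**Figure D4:**
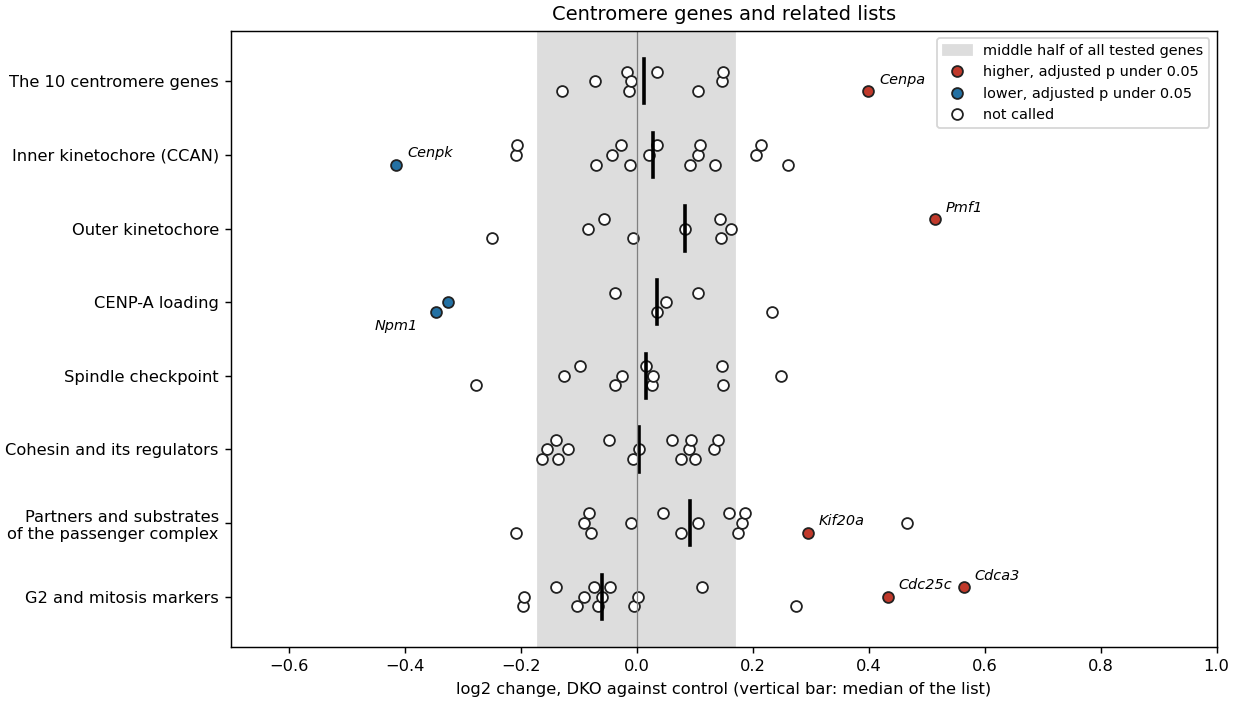
Log2 change in DKO against control of the 10 genes and of the genes of 7 related lists, with 1 point a gene, filled where the adjusted p was under 0.05, and a vertical bar at the median of each row. Row medians lie between -0.06 and 0.09, and 1 member, Cenpa, and 7 of 87 listed genes are filled, of which those described here are labelled.

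Between the clones 7 of the 87 genes were higher in clone 2 than in clone 1 and 1 was lower, 9.20% beside 6.30% of all tested genes, of which 373 were higher and 557 lower. Aurkc, the germline relative of Aurkb that can stand in for it, had 11.9 and 9.75 CPM in clone 2, against 4.74 and 4.45 CPM in clone 1, and 5.97 and 5.14 CPM in the control. The log2 difference of clone 2 from clone 1 was 1.23 (edgeR adjusted p = 0.00103) and was called in 15 of 15 alternative analyses. Per kilobase, Aurkc reached at most 7.80 CPM, where Aurkb had at least 19.4. Pttg1, the gene of securin, which holds back the cleavage of cohesin, was higher by 0.70 (edgeR adjusted p = 0.00417). Without clone 2 replicate 1 its adjusted p was 0.0603. The other 5 that were higher, by 0.25 to 0.37, were Hjurp, the chaperone that deposits CENP-A, the kinetochore genes Cenpu, Cenpe and Cenpf, and the checkpoint gene Spdl1. Ckap2, a microtubule protein of the spindle, was lower by -0.23. Each of these 6 lost its call without at least 3 of the 4 DKO libraries in turn, for instance without clone 2 replicate 2 (edgeR adjusted p from 0.186 to 0.291). These 8 genes were named after their values were seen.

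The neighbourhood of Cenpa on chromosome 5 was examined in the same comparison. Within 500 kb of it, 22 other genes were tested, of which 2 rose and none fell, with a median log2 change of 0.13. Over all tested genes 5.06% rose and 3.62% fell. The 914 tested genes of chromosome 5 had a median of -0.01. The 2 that rose were Selenoi, which starts 434 kb before the start of Cenpa, with a log2 change of 2.25 (edgeR adjusted p = 3.67e-05), and Ost4, with 0.46 (edgeR adjusted p = 0.0276). The call of Ost4 ended without any of control replicate 1 (0.270), control replicate 2 (0.0780), clone 1 replicate 1 (0.0503) and clone 2 replicate 1 (0.0574). Both were named after their values were seen. Selenoi is an enzyme of phosphatidylethanolamine synthesis and Ost4 a small subunit of the enzyme that attaches sugar chains to new proteins.

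**Figure D5:**
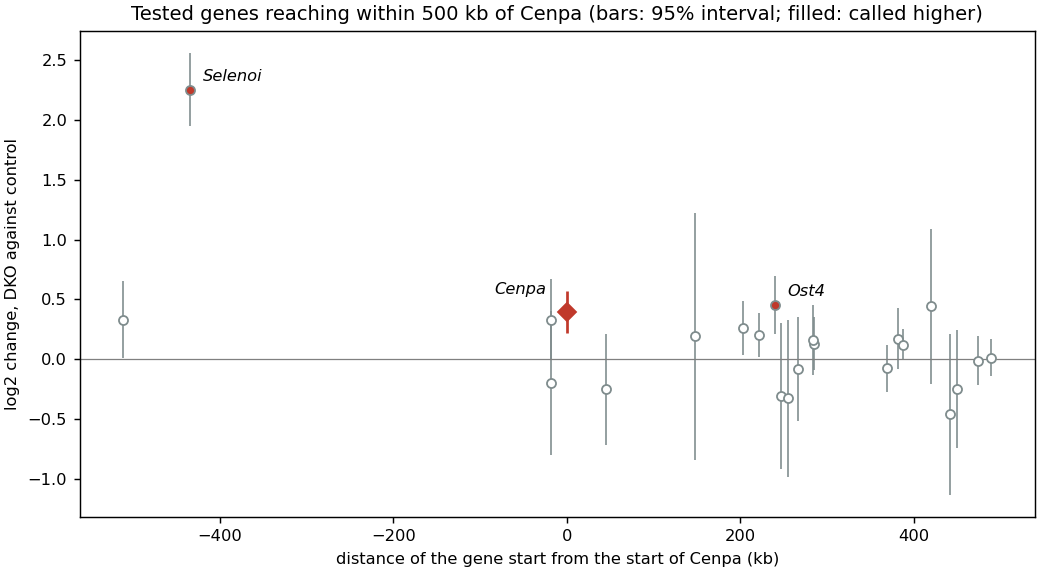
Log2 change in DKO against control of the tested genes that reach within 500 kb of Cenpa, plotted by the distance of their start from that of Cenpa in kilobases, with 95% intervals as bars. Cenpa (0.40), Selenoi (2.25) and Ost4 (0.46) are the genes called higher, and the median of the 22 neighbours is 0.13.

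Over the 6 libraries, the 4 subunits of the passenger complex varied little. The mean of their log2 CPM, each centred on its own average, was lowest in clone 2 replicate 2 (-0.07) and highest in control replicate 2 (0.10), and the control libraries, at -0.02 and 0.10, lay at least as far apart as the groups did. Of 8604 other genes at 10 CPM or more on average, the 4 whose log2 CPM followed this mean most closely were Dalrd3 (Pearson's r 0.997), Aunip (0.996), Ddx21 (0.990) and B3galnt2 (0.988). None of the 4 was called in DKO against control, with edgeR adjusted p from 0.312 to 0.695. With 6 points that share their libraries, such values of r are a description of these libraries.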

How the data were processed

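RNA of 6 libraries was sequenced after RNeasy purification, Turbo DNase and the stranded ScriptSeq v2 kit, per the labels' protocols. Reads were aligned with STAR 2.5.0a to mm10 (GRCm38), per the submitters' processing notes. The authors deposited whole read counts for each Entrez gene beside a gene width in bases. The counting tool, annotation, strand and treatment of reads matching several genes are not given in the sources used. Of 24467 identifiers, 24437 were matched to RefSeq (GRCm38.p6) for symbols and positions, and the 30 unmatched ones held 0.389 to 1.62% of each library. Counts were checked to be whole, and the libraries of a group to differ by more than sampling noise.

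Tests were run with edgeR 4.0.16 in R 4.3.3 (filterByExpr with 3 groups, TMM factors of 0.992 to 1.01, glmQLFit and glmQLFTest, two-sided, Benjamini-Hochberg over 14771 genes, threshold 0.05). CPM values are those of edgeR. DKO against control had genotype as the only term (4 residual degrees of freedom), and clones were compared in a fit with 3 groups (3 residual degrees of freedom). Standard errors came from the F statistic. All 10 members, Cbx5, Cbx1, Cbx3, up to 3 genes of each list with the smallest p and the 4 genes most like the passenger complex could be named by rule, as could genes overlapping a member. Members, lists and cell type markers were chosen with earlier results of these data known. Alternatives were RLE or library size scaling, other filters, DESeq2 1.42.0, limma-voom (limma 3.58.1), a replicate block, chromosomes centred on their medians, each library left out, and libraries thinned to 1 depth, the last chosen after seeing the data. Some results for members and genes named by rule are not reported here.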

Additional observations from a re-analysis of the deposited data

Results flagged for a closer look

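For 49 genes, the members and those named by rule, the 4 DKO libraries were searched for 1 library that stood apart. Its gap to the nearest other had to be above Dixon's 95% critical value. Chance passes that value in about 5% of groups of like samples, and here the 4 libraries came from 2 clones. The clones were also tested for a difference. Cdca8 had its highest DKO value, 91.2 CPM, in clone 1 replicate 2, with the other 3 at 82.3 to 83.2 CPM. Birc5 had its lowest, 157 CPM, in clone 2 replicate 2, with the others at 179.8 to 180.1 CPM. Rad21, the cleaved subunit of cohesin, had its lowest, 449.7 CPM, in clone 2 replicate 1, with the others at 458.7 to 460.3 CPM, and Cbx3 its highest, 490.5 CPM, in the same library, with the others at 449.9 to 455.5 CPM.

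Between the clones (edgeR, clone 2 minus clone 1), Spdl1, which brings dynein to kinetochores, differed by 0.29 on the log2 scale (adjusted p = 0.0369), with -0.43 and -0.14 in clones 1 and 2 against the control. Acta2, a smooth muscle actin on the fibroblast list, differed by -1.24 (adjusted p = 0.0191), with -1.42 and -2.66 against the control. Its level was low, since all 10 markers of that list summed to 4.20 to 5.98 CPM in DKO libraries. Eomes, on the trophectoderm list, differed by 0.79 (adjusted p = 0.00399), with 0.48 and 1.27 against the control. Over all tested genes, 6.30% were called between the clones.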

How the results depend on the processing

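Each result was recomputed under 15 alternatives. In DKO against control, Cenpa kept its direction in all of them, with log2 changes of 0.35 to 0.45, and was called in 13, the exceptions being those without a control library. Members called were 0 to 1 with libraries left out in turn, and 0 to 2 for clone 1. DESeq2 called 1 between the clones. Over all genes, leaving out libraries gave 158 to 715 higher and 88 to 482 lower calls in DKO against control, 797 to 1198 and 495 to 853 in clone 1, 656 to 1197 and 467 to 1105 in clone 2, and 115 to 377 and 155 to 557 between the clones. With chromosomes centred, higher calls were 335, 744 and 769 in DKO, clone 1 and clone 2, and of the companion genes 2 were called (0 to 9 with libraries left out). With no filter beyond 1 read, 644 genes were higher between the clones. Fits without 1 library assume that a lone sample varies like the others.

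Sign changes were seen for members that were called under no alternative (log2 scale). With chromosomes centred, Aurkb had 0.043 in DKO cells, 0.059 in clone 1, 0.027 in clone 2 and -0.032 between the clones. Mis12 had 0.037, 0.050, 0.023 and -0.026 there. Birc5 (0.046) and Haspin (0.029) turned in clone 1, and Incenp (0.00018) in clone 2. With library size only, Incenp (0.0056), Aurkb (0.0032) and Mis12 (0.00041) turned in clone 2, and thinned counts gave Aurkb -0.00047 between the clones. Outside the members, Mad2l1 (-0.22) and Nanog (-0.14), both on chromosome 6, turned with chromosomes centred, and Dalrd3 with libraries left out (-0.22 to 0.0097). The cause was not tested.

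With libraries left out, ranges that crossed 0 in DKO against control were -0.050 to 0.029 for Incenp, -0.097 to 0.086 for Aurkb and -0.16 to 0.030 for Birc5. In clone 1 they were -0.066 to 0.024 for Incenp, -0.099 to 0.084 for Aurkb, -0.12 to 0.077 for Birc5, -0.044 to 0.00018 for Mis12, -0.041 to 0.18 for Bub1 and -0.13 to 0.045 for Haspin. In clone 2 they were -0.044 to 0.034 for Incenp, -0.096 to 0.087 for Aurkb and -0.021 to 7.7e-06 for Mis12. Between the clones they were -0.032 to 0.058 for Incenp, -0.00041 to 0.0067 for Aurkb, -0.14 to 0.010 for Cdca8, -0.20 to 0.0012 for Birc5, -0.013 to 0.031 for Mis12 and -0.040 to 0.18 for Bub1.

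No pairing of the libraries by replicate number was seen over all tested genes: the deviations of same-numbered libraries correlated at 0.05, 0.07 and -0.13. A pairing that acts on part of the genes was not tested. With a replicate block, Cenpa had adjusted p = 0.0308 in DKO against control, and 1, 2, 1 and 0 members were called in the 4 comparisons, as without it. All genes called were 555 higher and 373 lower in DKO against control. Without gene length the levels gave another order, with Sgo2a highest.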
